A study of Mus musculus with 30 samples.

Results

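A set of 10 genes of the machinery that fills, docks and fuses synaptic vesicles was followed through 5 tissues of adult C57BL/6 mice: Snap25, Stx1a, Vamp2, Syt1, Cplx1, Syn1, Syp, Slc17a7, Slc17a6 and Slc32a1. They were chosen by name, as 10 of the 48709 genes listed in each of the 5 count tables, and all 10 had an entry. RNA had been sequenced from brain, kidney, liver, muscle (quadriceps femoris) and spleen of wild-type mice (WT, called control in the labels) and of mice heterozygous for Ctcf (Ctcf+/-), with 3 libraries per genotype and tissue and 30 in all. Both genotypes share the C57BL/6 strain and the adult stage, and the labels name no treatment. How the Ctcf allele was made, the age in weeks and whether a replicate number stands for the same mouse in every tissue are not given in the sources used here. The study asked how the dose of Ctcf, which encodes a zinc-finger DNA-binding protein of chromatin loops, bears on intron retention. The tables count exons, so what follows concerns gene expression.

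A nerve terminal releases transmitter when a vesicle fuses with the plasma membrane. Vamp2 on the vesicle and Stx1a with Snap25 on the plasma membrane are SNARE proteins, which zip together into the complex that drives fusion. Synaptotagmin (Syt1) senses calcium, complexin (Cplx1) binds the SNARE complex and sets its readiness, synapsin (Syn1) tethers vesicles in a reserve, and synaptophysin (Syp) is an abundant protein of the vesicle membrane. What a vesicle holds depends on its transporter: Slc17a7 (VGLUT1, mostly cortex, hippocampus and cerebellum) and Slc17a6 (VGLUT2, mostly thalamus, hypothalamus and brainstem) load glutamate, and Slc32a1 (VGAT) loads GABA and glycine.

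Many neuronal genes are held off in other cells by the repressor REST, which binds the RE1 element. The stretches upstream of 4 of the genes are shown because they span the transporters and the 1 gene with an RE1-like match. They are from RefSeq on GRCm38.p6, read 5′ to 3′ on the gene's strand, within the 250 bases before the RefSeq start and outside the gene as the deposited tables annotate it. Capitals mark matches, on either strand, to TTCAGCACC (left arm of the RE1 element), TGACGTCA (cAMP response element) or GGGCGG (GC box). The first lies at chrX:20921005-20921168 (minus strand, 164 bases), the second at chr7:45163671-45163920 (plus), the third at chr7:51621580-51621829 (plus) and the fourth at chr2:158610508-158610757 (plus).
Syn1: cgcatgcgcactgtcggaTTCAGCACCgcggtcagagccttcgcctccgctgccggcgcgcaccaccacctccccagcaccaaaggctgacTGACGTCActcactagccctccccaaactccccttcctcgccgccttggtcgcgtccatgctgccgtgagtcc
Slc17a7: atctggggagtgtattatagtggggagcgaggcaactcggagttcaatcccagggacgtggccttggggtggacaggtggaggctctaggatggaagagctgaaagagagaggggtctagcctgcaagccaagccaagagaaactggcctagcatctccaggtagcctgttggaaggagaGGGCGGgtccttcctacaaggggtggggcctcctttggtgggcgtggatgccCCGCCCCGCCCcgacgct
Slc17a6: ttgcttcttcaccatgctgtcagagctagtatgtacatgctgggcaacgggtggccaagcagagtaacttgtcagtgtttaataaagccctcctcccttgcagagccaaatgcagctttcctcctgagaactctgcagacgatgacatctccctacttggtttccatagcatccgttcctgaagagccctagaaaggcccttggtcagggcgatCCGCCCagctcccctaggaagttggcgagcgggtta
Slc32a1: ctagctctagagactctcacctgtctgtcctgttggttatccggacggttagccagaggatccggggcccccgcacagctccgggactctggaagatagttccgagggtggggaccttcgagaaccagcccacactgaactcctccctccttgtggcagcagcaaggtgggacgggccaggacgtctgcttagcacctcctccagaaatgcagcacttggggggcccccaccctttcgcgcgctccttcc

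RefSeq gave such a 250-base window for 8 of the 10 genes (10 windows). The TTCAGCACC match was in 1 of the 10 windows, that of Syn1, 232 bases before its start, and in 0.301% of all 32851 windows of that length. The TGACGTCA match was also in Syn1 alone, 159 bases before its start, against 1.55% of all windows. The GGGCGG match was in 6 of the 10 windows (of Cplx1, Slc17a6, Slc17a7, Stx1a, Syp and Syt1), against 32.7% of all windows. Slc17a7 held 3 of these matches, of which those 18 and 13 bases before its start overlap each other by 1 base. None of the 8 held the core of the CTCF motif (2.07% of all windows) or TATAAA, the TATA box (12.4%). Median GC content was 58.8% in the 10 windows and 52.4% in all windows. These are descriptions of letters, not sites of binding.

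Depth ranged from 49.8 M to 131.6 M counts per library. Ctcf itself checked the genotype labels: it was lower in all 3 Ctcf+/- libraries than in all 3 WT libraries of every tissue, with log2 fold changes of -0.70 to -0.57. In brain it fell by 0.69 on the log2 scale (SE 0.06, adjusted p = 0.0259 by edgeR's quasi-likelihood test), while its adjusted p was 0.107 to 0.914 in the other tissues. A list of 8 pan-neuronal markers summed to 2078 to 2346 CPM (TMM-scaled counts in each 1 M) in the 6 brain libraries and to 1.7 to 24.6 CPM in the other 24. 1 library stands apart for these genes, WT liver replicate 3, and the main edgeR fits that include it were also run without it. Results of DESeq2 and limma-voom and the comparison of profiles are given with it alone. So are values of other release genes, unless stated. Fewer cells of a type and less RNA per cell cannot be told apart in such bulk samples.

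Together the 10 genes took 0.616% to 0.704% of the scaled counts of a brain library. Their summed level was 6163 to 7038 CPM in brain, 118 CPM in WT liver replicate 3 and 54.4 to 97.1 CPM in the other 23 libraries. Levels of different genes were compared per kb of exon length (CPM per kb). In WT brain Snap25 had the highest mean of the 10 and Slc17a6 the lowest, and Snap25 ranked 73 among all 48709 genes on that scale.

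The plasma membrane SNAREs differed in level. Snap25 (chr2:136713453-136782428) had 238, 222 and 311 CPM per kb in WT replicates 1 to 3, a mean of 257 ± 47.8 (SD, n = 3). Stx1a (chr5:135023482-135051100) had 55.9, 59 and 72 CPM per kb, a mean of 62.3 ± 8.5. Both were highest in WT replicate 3, and the lowest Snap25 library stood above the highest Stx1a library. The vesicle SNARE Vamp2 (chr11:69088490-69092384) had 224, 244 and 251 CPM per kb, a mean of 240 ± 14, and its range overlapped that of Snap25.

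Syt1, the calcium sensor (chr10:108497650-109010982), had 120, 115 and 138 CPM per kb in WT brain, a mean of 124 ± 12.1. Cplx1 (chr5:108518554-108550024), with the shortest exon sequence of the 10 (2.19 kb), had 215, 221 and 227 CPM per kb, a mean of 221 ± 5.78. Cplx1 was thus above Syt1 in every library. Its range also overlapped the range of Vamp2, although Vamp2 was the higher of the pair in each of the 3 libraries. Syn1 (chrX:20860511-20921004) had 155, 166 and 158 CPM per kb, a mean of 160 ± 5.34, and Syp (chrX:7638471-7653256) had 130, 144 and 125, a mean of 133 ± 9.59. Syp shares 875 exon bases (16.8% of its length) with the gene model Gm14703 on the opposite strand. Fragments there were not counted for either gene, which could lower the level of Syp per kb by an amount that was not estimated.

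Among the transporters the order was Slc17a7, Slc32a1, Slc17a6, without overlap. Slc17a7 (chr7:45163949-45176142) had 136, 147 and 151 CPM per kb, a mean of 145 ± 7.84. Slc32a1 (chr2:158610767-158615748) had 31.2, 33.2 and 29.1, a mean of 31.2 ± 2.07. Its exons share 697 bases (24.9%) with Gm14205 on the opposite strand, which could lower its count. Slc17a6 (chr7:51622006-51671119) had 11.3, 10.7 and 10.5 CPM per kb, a mean of 10.8 ± 0.442. Its small spread in WT was not matched in Ctcf+/- brain, where the 3 libraries had 8.66, 11.6 and 13.1. Of the 9 neighbouring pairs in the order of WT means, 4 had overlapping ranges: Snap25 with Vamp2, Vamp2 with Cplx1, Slc17a7 with Syp, and Syp with Syt1.

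**Figure D1:**
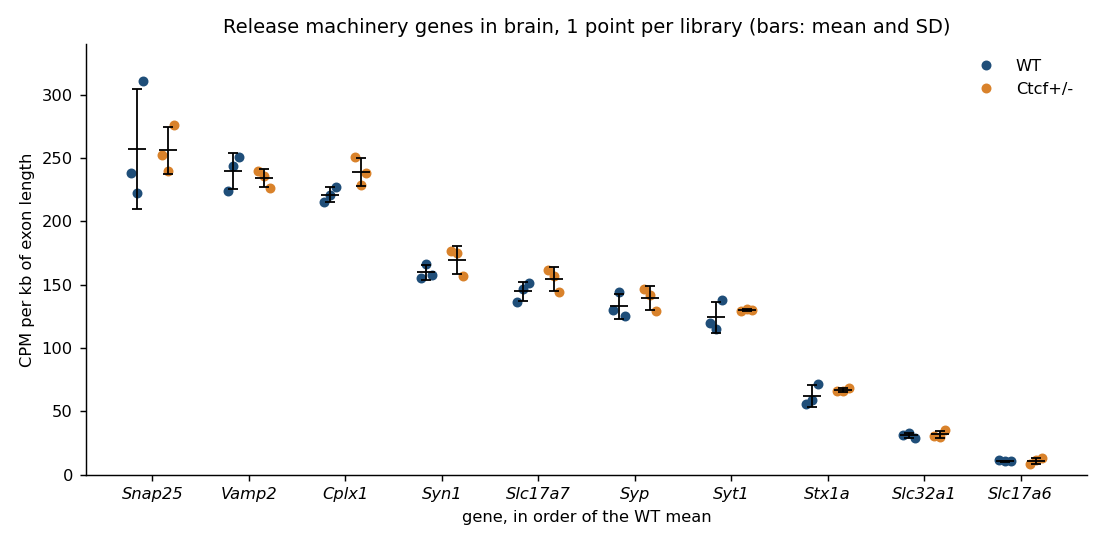
Level of each gene in brain in CPM per kb of exon length (vertical axis), with 1 point per library, WT in blue and Ctcf+/- in orange, and bars for the mean and SD of 3 libraries. The order runs from Snap25 (WT mean 257) to Slc17a6 (10.8), and the Snap25 point at 311 is WT replicate 3.

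The first comparison asked whether brain expression of the release machinery depends on Ctcf dose. None of the 10 genes was called in brain (adjusted p under 0.05, edgeR, Benjamini-Hochberg over 19166 genes), where 0.0157% of all genes tested were called. None had an unadjusted p under 0.05 either, by edgeR, DESeq2 or limma-voom, beside 2.96% of all genes by edgeR. Fitted log2 fold changes, Ctcf+/- over WT, lay between -0.03 and 0.11, with 8 positive (48.2% of all genes were) and 2 negative, a median of 0.07 beside a median of -0.0043 over all genes tested. Every 95% interval included 0. The adjusted p was 1 for all 10 genes.

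Among the SNAREs, Snap25 had 1618, 1505 and 2115 CPM in WT brain and 1714, 1631 and 1876 CPM in Ctcf+/- brain, so the Ctcf+/- values lay inside the WT range. Its log2 fold change was -0.0046 (95% interval -0.29 to 0.28). Leaving out WT replicate 3, its highest library, moved that value to 0.16. Vamp2 had 853, 928 and 957 CPM in WT and 913, 897 and 863 CPM in Ctcf+/-, again inside the WT range. Its interval, -0.18 to 0.11 around -0.03, was among the narrowest. Stx1a had 149, 157 and 192 CPM against 176, 176 and 183, a log2 fold change of 0.10 (-0.11 to 0.32).

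The regulators Syt1 and Cplx1 differed in how their libraries fell. Syt1 had 998, 957 and 1150 CPM in WT and 1079, 1092 and 1087 CPM in Ctcf+/-, a log2 fold change of 0.07 (-0.11 to 0.25). Cplx1 had 471, 484 and 497 CPM in WT and 549, 502 and 522 CPM in Ctcf+/-. It was the 1 gene of the 10 whose groups did not overlap in brain, where 7.83% of all genes tested did not overlap, so that count is close to the background. Its log2 fold change was 0.11 (SE 0.06, interval -0.02 to 0.25, unadjusted p = 0.0864 by edgeR).

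For the vesicle proteins, Syn1 had 513, 547 and 521 CPM in WT and 583, 578 and 517 CPM in Ctcf+/-, a log2 fold change of 0.09 (-0.07 to 0.24). Syp had 678, 750 and 653 CPM in WT and 766, 739 and 670 CPM in Ctcf+/-, a log2 fold change of 0.06 (-0.11 to 0.24). In both genes Ctcf+/- replicate 3 was the lowest of its group and lay within the WT range.

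The transporters were compared as mRNA, and the contents of vesicles were not measured. Slc17a7 had 734, 792 and 816 CPM in WT and 872, 846 and 775 CPM in Ctcf+/- (log2 0.09, -0.07 to 0.25). Slc17a6 had 61.1, 57.7 and 56.5 CPM in WT and 46.8, 62.4 and 70.6 CPM in Ctcf+/- (log2 0.04, -0.27 to 0.35). The Ctcf+/- values of Slc17a6 reached both below and above all WT values, and this gene had the widest interval of the 10. Slc32a1 had 87.4, 92.8 and 81.3 CPM in WT and 86.6, 83.7 and 98.5 CPM in Ctcf+/- (log2 0.04, -0.15 to 0.23).

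**Figure D2:**
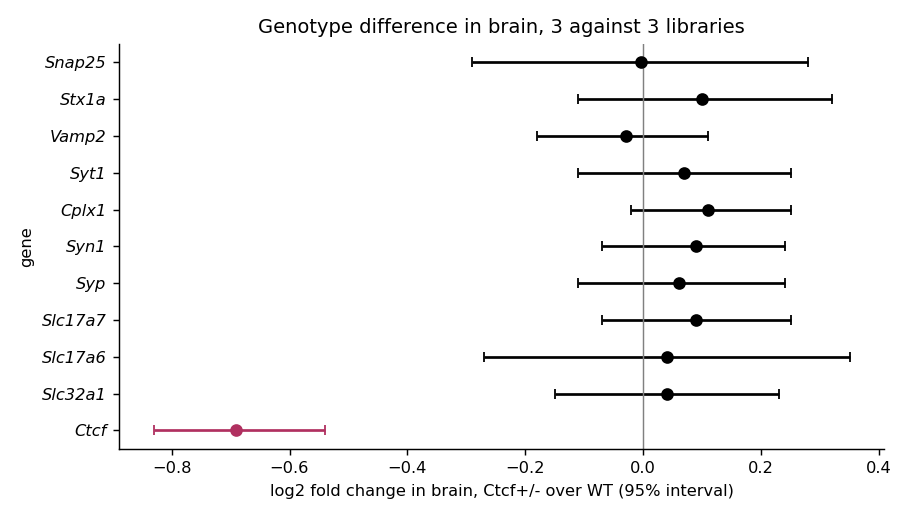
Log2 fold change in brain, Ctcf+/- over WT, with its 95% interval (horizontal axis), for the 10 genes in black and for Ctcf in red, from 3 against 3 libraries. All 10 black intervals span 0 and lie between -0.29 and 0.35, while Ctcf lies at -0.69.

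The ratio of Slc17a7 to Slc17a6, per kb, was 12, 13.8 and 14.5 in WT brain and 18.7, 13.6 and 11 in Ctcf+/- brain. The means were 13.4 ± 1.25 and 14.4 ± 3.91 (SD, n = 3), which did not differ beyond the spread (2-sided exact permutation p = 0.9, where 3 against 3 cannot go below 0.1). Both the highest and the lowest ratio were Ctcf+/- libraries. The ratio of Slc32a1 to summed Slc17a7 and Slc17a6 was 0.212, 0.211 and 0.179 in WT and 0.182, 0.178 and 0.225 in Ctcf+/-, with means of 0.201 ± 0.0183 and 0.195 ± 0.026 (exact permutation p = 0.9). Which brain regions each library held is not given in the sources used here, and markers of regions also differed between libraries. Summed hypothalamic markers were 62.1, 68 and 62.4 CPM in WT and 45.3, 53 and 67.5 CPM in Ctcf+/- replicates 1 to 3. Ctcf+/- replicate 1 was the lowest of the 6 brain libraries for these markers and for Slc17a6, while replicate 2 was below all WT libraries for the markers and above them for Slc17a6. Summed markers of thalamic, midbrain and brainstem neurons were 168, 146 and 165 CPM in WT and 192, 199 and 199 CPM in Ctcf+/-, without overlap. Of the 6 tested genes of that list 5 had a positive log2 fold change (median 0.28) and 3 had an unadjusted p under 0.05, beside the 2.96% of all genes, and none was called by edgeR. Summed striatal markers were 611 CPM in WT replicate 3, the library with the highest Snap25, Stx1a and Syt1, against 836 and 886 CPM in the other WT libraries. The part of these regional differences in the values above was not tested.

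In brain none of 91 other genes of the release machinery that had an entry, in 6 lists by role, was called. EdgeR and limma-voom tested 90 of them and DESeq2 tested 91, and 3 had an unadjusted p under 0.05 by each tool. Over all genes, 567 of 19166 by edgeR, 500 of 32298 by DESeq2 and 586 of 19166 by limma-voom had such a p. Of the 90 release genes tested by edgeR, 57 had a positive log2 fold change, with a median of 0.02. The 3 with the smallest unadjusted p did not pass: Cplx3, a complexin of retina and some cortical neurons, at 0.34 (SE 0.10, unadjusted p = 0.0119), Cacna1a, the pore of the P/Q-type calcium channel, at 0.14 (SE 0.06), and Sv2a, a vesicle glycoprotein, at 0.14 (SE 0.06). The other markers of cell types in brain also gave no call: 0 of 8 pan-neuronal, 0 of 6 astrocyte, 0 of 6 oligodendrocyte and 0 of 6 microglia markers.

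The second comparison set brain against the other tissues. In WT libraries all 10 genes were called higher in brain than in kidney, liver, muscle and spleen (edgeR, adjusted p of at most 4.25e-05 in each case), where 35.5%, 39.9%, 39.9% and 42.8% of all 22933 genes tested were called higher. In the Ctcf+/- libraries all 10 were likewise called higher in brain in each of the 4 contrasts, beside 35.6%, 38.7%, 41.8% and 42.1% of 23028 genes. The median log2 difference of all genes was -0.02 to 0.19 in the WT contrasts. Scaling by total counts moved it to 1.24 against liver and 1.45 against muscle, and all 10 genes were called higher in brain under that scaling too. That direction is textbook knowledge for these genes, so the sizes are the content. Where the other tissue held few counts, the fold is given from counts pooled over 3 libraries with an exact Poisson interval, which covers counting error only.

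Vamp2 had the smallest difference of the 10 in every tissue. Its mean in WT was 913 ± 53.5 CPM for brain. For spleen it was 81.7 ± 8.64, for muscle 72.6 ± 5.89, for kidney 60.9 ± 2.48 and for liver 32.4 ± 7.1. The log2 differences were 3.93 (SE 0.17) against kidney, 4.87 (SE 0.18) against liver, 3.55 (SE 0.17) against muscle and 3.52 (SE 0.17) against spleen. In kidney, muscle and spleen Vamp2 made up most of the summed level of the 10 genes. Its product is also known from regulated secretion outside neurons.

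Stx1a had its next highest level in spleen, where the WT libraries had 6.75, 5.17 and 6.14 CPM against 149 to 192 CPM in brain (log2 4.83, SE 0.33). In WT kidney it was at 1 to 1.43 CPM and in WT muscle at 1.06 to 1.65 CPM. Syt1 was next highest in liver, with 24.3, 22.5 and 32.2 CPM in WT and 19.4, 16.9 and 21.4 CPM in Ctcf+/-. Liver held 769 to 1258 Syt1 counts per library, against 23 to 50 in kidney and 0 to 9 in muscle and spleen, so all 6 liver libraries stood above all 18 others outside brain. The log2 difference from brain was 5.35 (SE 0.26) in WT, and 5.49 (SE 0.29) without WT liver replicate 3.

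Syp was next highest in kidney, with 6.37, 6.64 and 6.86 CPM in WT. Kidney held 750 to 957 Syp counts per library. It was also counted in the other tissues, at 1.33 to 1.87 CPM in WT muscle and 0.507 to 0.857 CPM in WT spleen. Syn1 was at 0.734 to 0.887 CPM in WT spleen (72 to 126 counts per library), and at 0.124 to 0.186 CPM in WT kidney. Timp1 lies within the span of Syn1, with 0 shared exon bases.

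The transporters were near or at 0 outside brain, with 1 exception besides the liver library. Slc17a7 was counted in every muscle library, at 0.664, 1.29 and 1.46 CPM in WT and 0.619, 0.667 and 1.48 CPM in Ctcf+/- (36 to 86 counts). In WT kidney and spleen together it had at most 5 counts in a library. WT brain stood 694 times above WT muscle for Slc17a7 (counting interval 606 to 798). Slc17a6 had 0 counts in all 6 muscle libraries and Slc32a1 had 0 counts in all 6 muscle and all 6 kidney libraries. Against 3 counts over the 3 WT libraries, Slc32a1 was at least 10433-fold lower in kidney and at least 5392-fold lower in muscle than in brain, and Slc17a6 at least 3616-fold lower in muscle.

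Snap25 and Cplx1 were also traces outside brain and liver. Snap25 had 0 counts in the 3 WT spleen libraries, 2 in the 3 WT muscle libraries and 10 in the 3 WT kidney libraries. Against 3 counts over those spleen libraries, Snap25 was at least 208952-fold lower in WT spleen than in WT brain. Cplx1 had 5 counts over the WT kidney libraries, 9 over the WT muscle libraries and 5 over the WT spleen libraries. Snap25 and Slc17a6, at either end of the order in brain, both had 0 counts in the 3 WT spleen libraries.

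**Figure D3:**
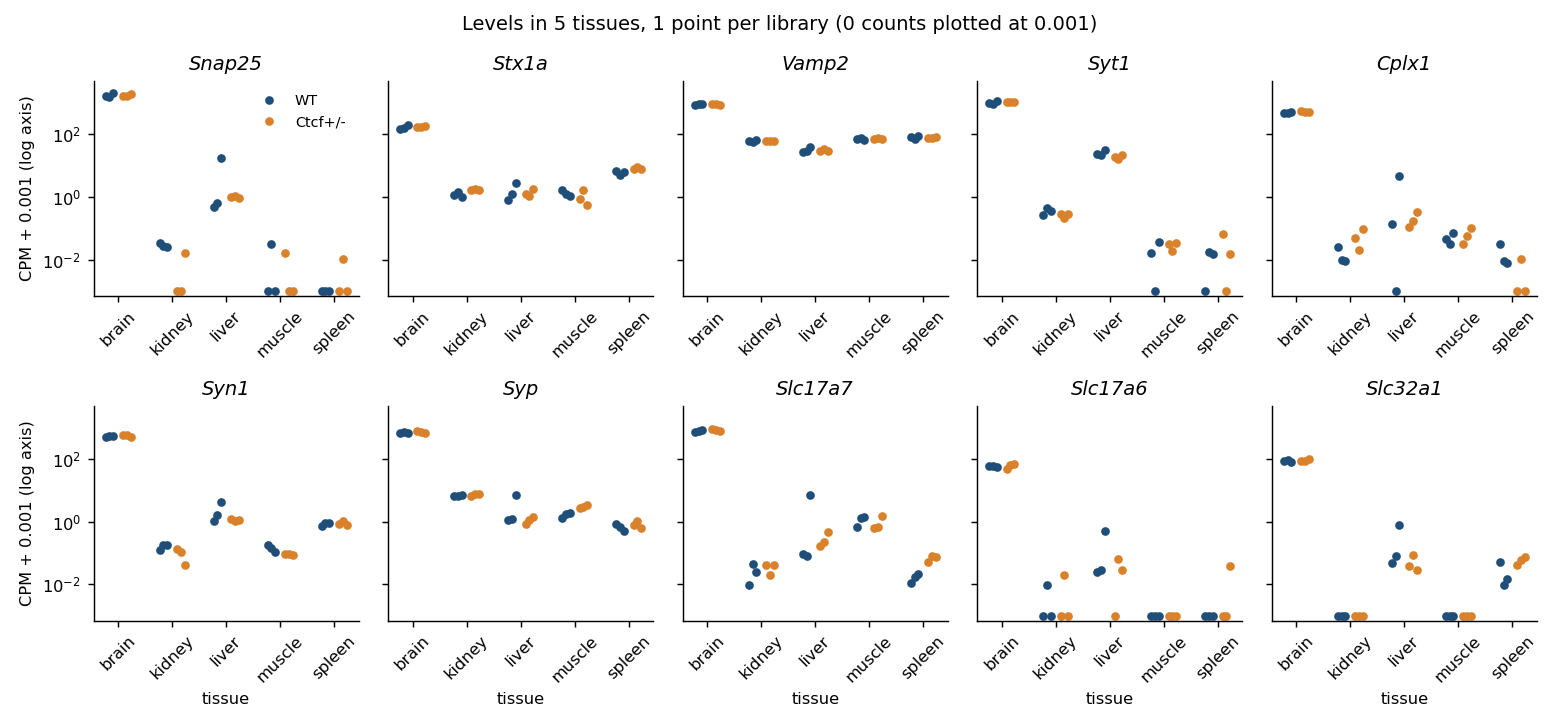
CPM plus 0.001 on a log axis (vertical) by tissue (horizontal) for each gene, with 1 point per library, WT in blue and Ctcf+/- in orange. Brain is highest for all 10 genes, Vamp2 has the smallest gap, Syt1 stands out in liver and Slc17a7 in muscle, and the WT liver point far above its group is replicate 3.

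The gene of the repressor REST ran the other way. Rest was at 4 ± 0.995 CPM in WT brain, against 50.1 ± 10.1 CPM in spleen, 27.2 ± 3.45 in kidney, 24.5 ± 2.33 in liver and 16.8 ± 2.42 in muscle. Its log2 difference, brain against the other tissue, was -2.75 (SE 0.21) for kidney, -2.57 (SE 0.20) for liver, -2.18 (SE 0.20) for muscle and -3.62 (SE 0.21) for spleen, with adjusted p of at most 1.84e-07 by edgeR.

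WT liver replicate 3 held more of all 10 genes than the other 2 WT liver libraries. Snap25 had 690 counts there against 21 and 23, and Slc17a7 had 287 against 4 and 3. Cplx1 had 186 counts against 6 and 0, Syp 273 against 50 and 45, and Syn1 166 against 46 and 62. Slc32a1 had 31 counts against 2 and 3, and Slc17a6 had 19 against 1 and 1. The excess over the mean of the other WT liver libraries, as a percent of the WT brain mean, was 0.545 to 1.32 over the 10 genes, with a median of 0.888. Genes with very different levels in brain thus exceeded the other libraries by a similar share of their brain level.

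Markers of some other brain cells were also higher in that library. All 8 pan-neuronal markers were higher there, with an excess of 0.805% to 1.1% of WT brain and a median of 0.899%. All 6 oligodendrocyte markers and all 6 astrocyte markers were higher too, with medians of 0.911% and 0.869%. The astrocyte values ran from 0.581% to 2026%, the last for Aldh1l1, which hepatocytes also express. Fgfr3, at 57.2%, had a mean of 40.6 CPM in the other WT liver libraries. Other lists, cut to markers at 10 CPM or more in WT brain, were mixed. In them 3 of 6 microglial, 4 of 6 brain endothelial and 2 of 3 choroid plexus markers were higher, with medians of 0.348%, 1.6% and 0.555%. With the same cut, 7 of 8 cortical, 7 of 8 striatal and 6 of 7 interneuron markers were higher. So were all 4 thalamic, midbrain and brainstem, 3 cerebellar and 4 hypothalamic markers. Medians of these 6 lists ran from 0.698% (striatal) to 6.27% (thalamic, midbrain and brainstem). Of the 4 markers behind that 6.27%, Rora, Tcf7l2 and Prkcd also had means of 61, 16.7 and 19.5 CPM in the other WT liver libraries. The last of the 4, Zic1 (1.38%), was at 0.0773 CPM there. Summed liver markers were lower there than in the other WT liver libraries, at 232002 CPM against 276404 and 320936 CPM. The Ctcf+/- liver libraries had 232868, 259028 and 260111 CPM, so a low sum was not particular to WT liver replicate 3. Microglial values ran from -44.2% to 6.18%. Over 43 genes at 50 CPM or more in WT brain and at 0.1 CPM or less in the 18 kidney, muscle and spleen libraries, the median level was 0.903% of WT brain in this library and 0.0276% to 0.0476% in the other 5 liver libraries. The ratio of Slc17a7 to Slc17a6 per kb there was 15.1 (exact 95% interval 9.51 to 25.5), beside 12 to 14.5 in the WT brain libraries. The 5 genes Snap25, Cplx1, Slc17a7, Slc17a6 and Slc32a1, picked after their values were seen, had a median of 0.939% of WT brain in this library and of at most 0.0602% in each of the other 23 libraries outside brain. Where these fragments came from was not tested.

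**Figure D4:**
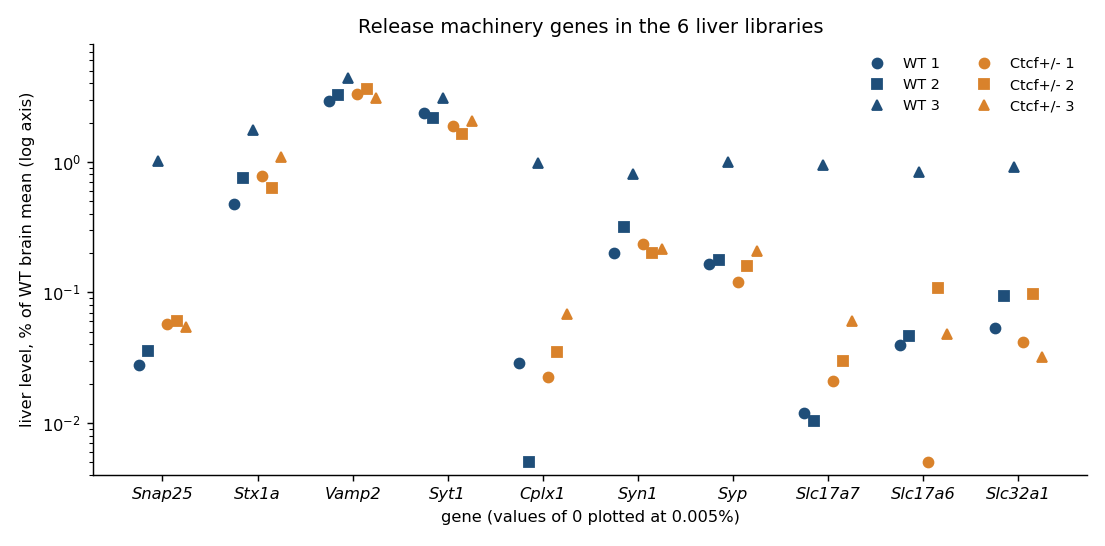
Level of each gene in the 6 liver libraries as a percent of its WT brain mean (log axis), with WT in blue, Ctcf+/- in orange and a marker shape per replicate. The WT 3 triangle is the highest point for all 10 genes, with the widest gap for Snap25, Cplx1 and Slc17a7 and the narrowest for Vamp2 and Syt1.

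That library set the size of the difference between WT brain and WT liver. With it, the log2 difference was 8.21 for Snap25 (SE 1.20), 8.37 for Slc17a7 (SE 1.13) and 8.30 for Cplx1 (SE 1.01). Without it, the values were 11.65 (SE 0.40), 13.13 (SE 0.46) and 12.66 (SE 0.45), although these rest on few counts. Slc17a6 moved from 8.41 to 11.14, Slc32a1 from 8.22 to 10.44, Syp from 7.87 to 9.21, Syn1 from 7.89 to 8.62 and Stx1a from 6.73 to 7.39. All 10 genes were called higher in brain in both cases.

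In the genotype comparison of liver, 7 of the 10 genes passed the filter on low counts and none was called by edgeR (0.0193% of 15584 genes), with 1 at an unadjusted p under 0.05 (4.56% of all genes). DESeq2 and limma-voom called none either, with 4 of 10 and 1 of 7 at an unadjusted p under 0.05. Over all genes, 867 of 27139 by DESeq2 and 738 of 15584 by limma-voom had such a p. Neither tool was run without WT replicate 3. By edgeR, all 7 genes that passed the filter had a negative log2 fold change (47.6% of all genes had a positive one), with a median of -1.03. Of them, 4 turned positive without WT replicate 3. Snap25 went from -2.64 to 0.85, Slc17a7 from -3.15 to 1.65, Stx1a from -0.25 to 0.44 and Vamp2 from -0.08 to 0.11. Syp went from -1.47 to -0.08 and Syn1 from -1.03 to -0.26. Syt1 was 1 of the 7 whose groups did not overlap in liver (8.97% of all genes), lower in Ctcf+/-, at -0.45 (SE 0.17, unadjusted p = 0.0281 by edgeR) and at -0.28 (SE 0.15, unadjusted p = 0.0994) without that library. No adjusted p was below 0.42 without it.

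The remaining tissues held fewer testable genes: 5 of the 10 in kidney, 4 in muscle and 4 in spleen. None was called by edgeR in any of them, where 0.0211% of genes in kidney, 0.0249% in muscle and 0.242% in spleen were called. Limma-voom called none in any of them, and DESeq2 called 1, Syp in muscle. In each tissue 1 gene had an unadjusted p under 0.05 by edgeR (6.44% of all genes in kidney, 6.45% in muscle and 3.52% in spleen), and that gene was also the 1 whose groups did not overlap, beside 11.4%, 12.2% and 6.65% of all genes.

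In muscle that gene was Syp, with 1.33, 1.7 and 1.87 CPM in WT and 2.81, 2.83 and 3.29 CPM in Ctcf+/-. All 3 Ctcf+/- libraries lay above all 3 WT libraries. Its log2 fold change was 0.87 (SE 0.21, unadjusted p = 0.00301, adjusted p = 0.384 by edgeR). DESeq2 gave an adjusted p of 0.0382, a threshold that 1.02% of 18092 genes passed with that tool, and the other alternatives gave adjusted p of 0.119 to 0.773. Summed markers of peripheral neurons, Schwann and neuroendocrine cells were 97.8, 58.8 and 47.5 CPM in WT muscle and 50.2, 86.2 and 35.7 CPM in Ctcf+/- muscle, which overlap. Summed kidney markers did not overlap, at 15.2, 109 and 14.7 CPM in WT muscle and 0.159, 0.222 and 8.81 CPM in Ctcf+/- muscle, with 4 of 5 tested genes at an unadjusted p under 0.05. Of the microglial markers, which other macrophages share, 3 of 6 had such a p and 5 were positive, with sums of 11.1 to 14.5 CPM in WT and 13.6 to 23.6 CPM in Ctcf+/-. EdgeR called no gene of these lists in muscle, and their part in the Syp values was not tested. Vamp2 in muscle was at 72.6 ± 5.89 CPM in WT and 72.8 ± 4.14 in Ctcf+/- (log2 0.0047, interval -0.22 to 0.23).

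In kidney and in spleen the gene was Stx1a. Kidney had 1.2, 1.43 and 1 CPM in WT and 1.67, 1.82 and 1.64 CPM in Ctcf+/- (log2 0.50, SE 0.19, unadjusted p = 0.0313, adjusted p = 0.694 by edgeR). Spleen had 6.75, 5.17 and 6.14 CPM in WT and 8.05, 9.34 and 7.77 CPM in Ctcf+/- (log2 0.48, SE 0.18, unadjusted p = 0.0321, adjusted p = 1 by edgeR). The Ctcf+/- libraries were higher in 3 of 3 cases in both tissues. In muscle Stx1a gave -0.39 (SE 0.41) and its groups overlapped. Summed kidney markers were 0.118 to 0.296 CPM in WT spleen and 7.46 to 15.5 CPM in Ctcf+/- spleen, with 3 of 5 tested genes called by edgeR. Summed liver markers ran the other way, at 23.8 to 30.6 CPM in WT spleen and 0.0629 to 0.241 CPM in Ctcf+/- spleen, with 6 of 6 called. The part of both lists in the Stx1a values was not tested.

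**Figure D5:**
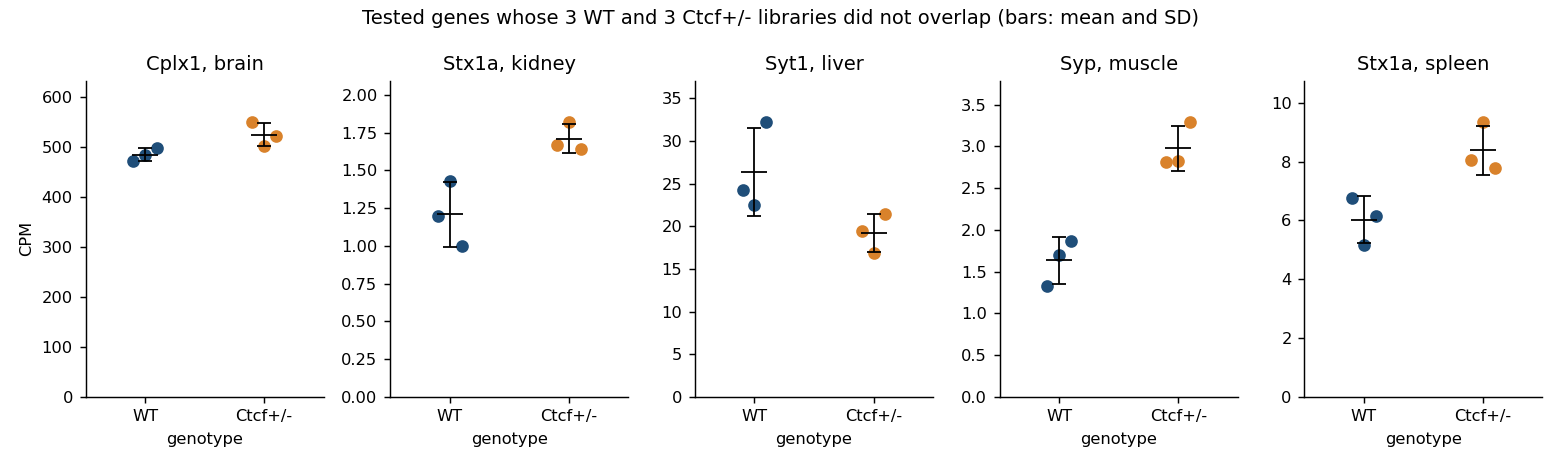
CPM (vertical axis, from 0) in WT and Ctcf+/- libraries for the 5 tested combinations of gene and tissue whose groups did not overlap, with bars for the mean and SD of 3 libraries. Cplx1 in brain, Stx1a in kidney and spleen and Syp in muscle are higher in Ctcf+/-, and Syt1 in liver is lower.

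Counts too low to be tested followed no single direction. Slc17a7 in spleen had 1, 2 and 3 counts in WT and 7, 8 and 10 in Ctcf+/-. Snap25 in kidney had 4, 3 and 3 counts in WT and 0, 0 and 2 in Ctcf+/-. At this depth these are a handful of fragments, and a difference from so few was not tested in the main fit of that tissue.

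An interaction term in a fit of all 30 libraries compared the effect of genotype across the tissues. None of the 10 genes was called, beside 0.758% of 24262 genes, and 4 had an unadjusted p under 0.05 (Syp, Cplx1, Slc17a7 and Syn1), beside 6.66% of all genes. Without WT liver replicate 3 again none was called and 4 had such a p, beside 7.03% of all genes, with Snap25 (unadjusted p = 0.0292 by edgeR) in and Cplx1 (0.0577) out. The smallest with all libraries was that of Syp (unadjusted p = 0.00636, adjusted p = 0.287 by edgeR). DESeq2's likelihood ratio test gave Syp an adjusted p of 0.0455, which 3.92% of genes passed. By that test 6 of the 10 genes had an unadjusted p under 0.05. They were the 4 named with all libraries, Slc32a1 (unadjusted p = 0.0206) and Syt1 (unadjusted p = 0.0268). The share of all genes with such a p by that test is not given here, so this count has no background beside it. That test was not run without WT liver replicate 3. These fits take in genes too low to be tested in a tissue alone. Cplx1 passed the filter on low counts in brain alone, with 1 to 3 counts in WT kidney and 2 to 12 in Ctcf+/- kidney. Slc17a7 failed it in kidney and spleen, so such p-values draw partly on a few fragments. The fitted values of Syp by tissue were 0.87 for muscle, 0.30 for spleen, 0.13 for kidney, 0.06 for brain and -1.47 for liver (-0.08 without WT replicate 3), on the log2 scale.

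The wider machinery showed which parts are shared with other tissues. Of the 91 other genes, 18 had a higher WT mean in some tissue than in brain. Among genes high per kb in WT brain, Cplx2, another complexin, was at 176 ± 20.2 CPM per kb and Rab3a, a vesicle GTPase, at 202 ± 10.4. Dnm1, the dynamin of vesicle retrieval, was at 184 ± 10.2 and Gad1, which makes GABA, at 40.7 ± 0.667. Rims1, an active zone scaffold, was at 20.5 ± 4.12. Snap47, Syt11, Syt5, Atp6v1g2, Scamp5, Unc13a, Ppfia3, Gad2 and Sncb lay between 17.7 and 141 CPM per kb. Rims1, Unc13a and Ppfia3, the active zone genes named here, were below the 31.2 of Slc32a1. Snap47 shares 11.6% of its exon bases with Jmjd4.

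Against the tissues each was compared with, the complexins and calcium sensors were called higher in brain in 16 of 16 tested genes in kidney, liver, muscle and spleen alike. SNAREs and their handlers were called higher in 11 or 12 of 20 and lower in 7 or 8, where 36%, 33.3%, 32.5% and 37% of all genes were called lower in brain than in those tissues. Snap23, the homologue of Snap25 in most cells, was at 67.6 ± 3.41 CPM in WT muscle against 7.67 ± 0.184 in brain (log2 brain over muscle -3.25, SE 0.11). Vamp8, a SNARE of endosomes and secretory cells, was at 228 ± 15.3 CPM in kidney against 8.11 ± 0.224 (log2 -4.79, SE 0.25). Stxbp2 and Stx2 were higher in spleen, at log2 -2.57 (SE 0.18) and -2.38 (SE 0.28). The non-neuronal relatives of synaptophysin and synaptogyrin, Sypl and Syngr2, were at 296 ± 11.1 and 307 ± 5.9 CPM in muscle against 27.6 ± 0.905 and 7.17 ± 0.745 in brain. All 6 passed the test, with adjusted p of at most 1.57e-06 by edgeR.

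The vesicle transporters outside the 10 included a pair that were higher elsewhere. Slc18a1 (VMAT1, a monoamine transporter of endocrine cells) was at 106 ± 13 CPM in WT kidney and 0.159 ± 0.0117 in brain (log2 -9.33, SE 0.46, adjusted p = 3.38e-10 by edgeR). Slc17a8 (VGLUT3) was at 27 ± 18.4 CPM in WT liver and 3.35 ± 0.426 in brain (log2 -2.98, SE 0.45, adjusted p = 3.13e-05 by edgeR). Its liver libraries spread from 11.3 to 47.3 CPM. Of the 3 vesicular glutamate transporters, Slc17a8 was therefore the one with a higher mean in liver than in brain.

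By genotype, edgeR in its main setting called none of the other release genes outside brain: 0 of 71 tested in kidney, 62 in muscle, 59 in liver and 56 in spleen. Unadjusted p was under 0.05 for 7, 6, 6 and 3 of them in that order, beside 6.44%, 6.45%, 4.56% and 3.52% of all genes. DESeq2 called 1 in kidney (Erc2, beside 1.11% of genes) and 2 in liver (Erc2 and Unc13b, beside 0.364%). Erc2, an active zone scaffold, was at log2 -0.66 in kidney (SE 0.12, adjusted p = 0.194 by edgeR) and -0.75 in liver (SE 0.16, adjusted p = 0.465). Without WT liver replicate 3 its liver value was -0.68 (SE 0.16). In liver Unc13b (Munc13-2, a priming factor) was at 7.35, 5.18 and 9.53 CPM in WT and 24.2, 21 and 19.8 CPM in Ctcf+/-, without overlap (log2 1.56, SE 0.22, adjusted p = 0.136 by edgeR). It passed in liver by edgeR with genes of at least 1 count (adjusted p = 0.0111) and in the fit of all 30 libraries (adjusted p = 2.95e-04). The other edgeR alternatives gave it adjusted p of 0.0587 to 0.699 there. In spleen it passed in the fit of all 30 libraries alone (adjusted p = 0.0378).

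The others with the smallest unadjusted p did not pass either in the main edgeR setting. They were Amph at 0.93 (SE 0.26) and Syt9 at 0.47 (SE 0.16) in kidney, and Rims2 at 1.53 (SE 0.44) in liver. In muscle they were Vamp8 at -0.47 (SE 0.15), Syngr2 at -0.23 (SE 0.08) and Doc2b at -1.12 (SE 0.41). In spleen they were Gad1 at -1.02 (SE 0.30), Unc13b at 0.96 (SE 0.37) and Sv2c at 0.71 (SE 0.29).

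Profiles over the 15 WT libraries, with WT liver replicate 3 among them, were compared by the root-mean-square difference of centred log2(CPM + 0.1). The candidates were 9315 other genes at 10 CPM or more in WT brain. The nearest were Cacng2, a regulator of AMPA receptors, to Slc17a6 (0.07), Slc7a14 to Slc32a1 (0.21), Gm14597 to Vamp2 (0.27), and Edil3 to Syp (0.33). For Stx1a the nearest was Frmd5 (0.41), for Cplx1 Slc6a11, an astrocytic GABA transporter (0.41), and for Snap25 Mobp, a myelin gene of oligodendrocytes (0.43). Camkv was nearest to Slc17a7 (0.63), Dpp10 to Syn1 (0.72) and Disp2 to Syt1 (0.90). The nearest genes thus included markers of glia as well as of neurons. Syt1 and Syn1 were the least closely matched at this pseudocount. Nearest to the mean profile of the 10 were Car10 (0.18), Scrt1 (0.20), Rit2 (0.21), Mpped1 (0.26) and Gpr158 (0.26). With a pseudocount of 1, which weighs traces less, 3 of the 10 nearest genes were the same. Syn1 was then nearest to Sult4a1 (0.31), and Syt1 again to Disp2 (0.76).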

How the data were processed

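RNA-seq libraries of 5 tissues were analysed, with 3 WT and 3 Ctcf+/- libraries in each and groups taken from the titles. The authors deposited raw counts, with a table for each tissue. Per the file headers these came from featureCounts 1.5.0-p3, run on exons of Ensembl release 86 (GRCm38) with strand ignored. Fragments overlapping several genes were left out, per the command in the file headers. STAR, FastQC and DESeq2 are named in the submitters' processing notes. Gene symbols were matched by identifier for 48349 of 48709 genes, and coordinates of genes are those of the deposited tables.

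Tests used edgeR 4.0.16 under R 4.3.3 (filterByExpr, TMM, quasi-likelihood F-test, Benjamini-Hochberg over all genes tested, calls at an adjusted p under 0.05). Each tissue was fitted alone for genotype. Brain was set against the other tissues in fits of the 15 WT and the 15 Ctcf+/- libraries, and an interaction of tissue and genotype was tested over all 30. Levels are CPM scaled by TMM among the 6 libraries of a tissue, with an offset between tissues from TMM over all 30, a scaling chosen after the data were seen. Where a group held 0 counts, the fold is a bound against 3 counts over the 3 libraries. The genotype steps and the WT tissue steps were run on simulated counts with the same spread for all genes. That run held no interaction, no outlying library and no change in genes at traces, so it does not bear on those. The labels name no batch and do not say that libraries come from separate mice, so the p-values measure only the spread between these libraries.

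The 10 genes, the lists of other release genes and the markers were chosen with earlier results of these data known. The rule for naming genes covers all 10 in every tissue. Of the other release genes it takes those called by genotype or, with none called, the 3 with the smallest unadjusted p, the 3 highest in WT brain per role, and up to 8 with a higher level in another tissue. Some genes that this rule takes are not reported here. Erc2 and Unc13b under DESeq2 were named after their values were seen, although both are also in the rule by edgeR. Alternatives were DESeq2 1.42.0, DESeq2 size factors or total counts in edgeR, limma-voom (limma 3.58.1), looser and stricter filters, a fit of all 30 libraries, a replicate block, and fits with libraries left out.

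Whether replicate numbers pair WT and Ctcf+/- libraries was checked by correlating deviations from group means across genes. In brain r was 0.209, 0.386 and 0.54 and in kidney 0.211, 0.193 and 0.213, all over 0.1, so the numbers were taken to pair there. The main p-values, intervals and permutations given for brain and kidney nevertheless come from unpaired comparisons. The replicate block is the fit with that pairing, and in it the SE of Snap25 in brain was 0.07, against 0.13 unpaired. The labels do not say what the numbers stand for. No pair of replicates agreed within sampling noise (chi-square per degree of freedom 15.4 to 640).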

Additional observations from a re-analysis of the deposited data

Results flagged for a closer look

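None of the 10 genes was singled out. Among the other release genes, Unc13b, which encodes a priming factor of vesicles, was the 1 of 90 tested whose genotype effect differed between tissues (adjusted p = 0.0115 for the interaction, edgeR over all 30 libraries). Of all 24262 genes, 0.758% were called, so 1 of 90 is close to the background. Its log2 fold change, Ctcf+/- over WT, was 1.56 in liver (SE 0.22, higher in 3 of 3 libraries) and 0.96 in spleen (SE 0.37), and 0.01 in brain (SE 0.07), 0.23 in kidney (SE 0.12) and -0.01 in muscle (SE 0.16). The interaction's adjusted p was 0.00262 to 0.0395 over the edgeR alternatives and 3.18e-08 by DESeq2. Without WT liver replicate 3 it was 0.0079.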

How the results depend on the processing

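Of 811 fold changes of the 10 genes under alternatives, 787 kept their direction and their side of the threshold, 23 reversed and 1 passed a threshold it had missed. Of 115 counts of genes called, 113 were the same. The exceptions were muscle under DESeq2, with 1 gene called (Syp, log2 0.87, adjusted p = 0.0382), and the interaction under DESeq2's likelihood ratio test, also with 1. The replicate block changed no call of the 10 genes. In brain, Snap25 reversed from -0.0046 to 0.0011 under DESeq2, 0.01 under limma-voom and with genes of at least 1 count, 0.06 in the fit of all 30 libraries and 0.0088 with the replicate block, and Vamp2 reversed to 0.03 in the fit of all 30. Leaving out 1 library at a time gave ranges that cross 0. In brain these were -0.10 to 0.16 for Snap25, -0.08 to 0.0014 for Vamp2, -0.10 to 0.19 for Slc17a6 and -0.03 to 0.09 for Slc32a1. In kidney the range was -0.01 to 0.05 for Vamp2. In liver they were -3.19 to 0.85 for Snap25, -0.20 to 0.11 for Vamp2, -0.59 to 0.44 for Stx1a and -3.71 to 1.65 for Slc17a7, each positive only without WT replicate 3. In muscle the range was -0.05 to 0.05 for Vamp2, and in spleen -0.07 to 0.14 for Syn1 and -0.16 to 0.003 for Vamp2. The difference between genotypes in the Slc17a7 to Slc17a6 ratio was 0.997 and ranged from -1.13 to 2.71, and that in the Slc32a1 ratio was -0.00598 and ranged from -0.021 to 0.00252. The cause of these changes was not tested, beyond the library left out. DESeq2 gave no adjusted p for Cplx1 in brain against other tissues. The count of nearest genes that were the same fell from 10 to 3 with a pseudocount of 1.

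Depth was 49.8 M to 131.6 M counts. With 3 libraries a group, the half-widths of the 95% intervals in brain ran from 0.14 (Cplx1) to 0.31 (Slc17a6) on the log2 scale. That limits the differences that could be detected for each gene in these fits, which left the pairing of replicate numbers out. Genes at a few counts outside brain have bounds or counting intervals only, which cover counting error and not the spread between mice. The fit without WT liver replicate 3 between tissues and for the interaction was added after seeing the data.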
